A study of Caenorhabditis elegans with 12 samples.

Results

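The heat shock proteins and co-chaperones of the nematode Caenorhabditis elegans were followed in total and polysomal RNA of worms labelled glh1 and wt. Members were taken by symbol: every hsp, dnj or cct gene with a number, together with daf-21, sip-1, hsp-110 and hsf-1. That gave 61 of the 46904 gene IDs in the count table, with 59 distinct symbols, and daf-21 is listed under its other name, hsp-90. All 61 passed the filter on low counts. By role there were 7 heat-inducible genes of the cytosol, 3 genes inducible by stress of an organelle, 5 constitutive HSP70, HSP90 and HSP110 genes, 8 other small heat shock protein genes, 29 J protein genes, 8 subunits of the chaperonin and the regulator hsf-1.

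Molecular chaperones bind unfolded protein. HSP70 proteins work in cycles of ATP hydrolysis that J proteins start and that HSP110 proteins help to reset, HSP90 receives clients from HSP70, small heat shock proteins hold unfolded protein without ATP, and the chaperonin, a ring named CCT, folds actin and tubulin. Most are made in unstressed cells, whereas a few, such as the hsp-16 genes and hsp-70 of the worm, are nearly silent until the transcription factor HSF-1 turns them on in heat, and hsp-4, hsp-6 and hsp-60 respond to unfolded protein in the endoplasmic reticulum (ER) or the mitochondrion.

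There were 4 groups of 3 libraries: polysomal RNA of glh1, polysomal RNA of wt, total RNA of glh1 and total RNA of wt, with 3 cultures per genotype. GLH-1 is an RNA helicase of germ granules, and the series asks how expression and polysome loading differ in its presence and absence. The labels give the genotype as glh1 with no allele, and wt with no strain name. Synchronized worms grew in liquid culture at 20 °C for approximately 40 h to a stage described as mostly young adult, no heat treatment is named, and each lysate was divided between total RNA and the polysome fraction of a 10 to 50% sucrose gradient.

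The libraries held 34520267 to 49672537 estimated counts, of which annotated ribosomal RNA took 3.07 to 45.7%. The gene glh-1 itself was measured in CPM, its counts scaled to a common library total by TMM, and ran from 879.7 to 1495 CPM in polysomal libraries labelled glh1 and from 293 to 388 CPM in polysomal wt libraries, and from 532 to 586 CPM in total RNA labelled glh1 and from 305 to 424 CPM in total wt RNA. Levels of glh-1 RNA thus do not go lower with the label glh1, and genotypes are given below as labelled. On the second principal component (18.6% of variance) both libraries of wt culture 1 lay with glh1, at -28.7 and -22.6, where glh1 ran from -31.5 to -18.4 and the other wt libraries from 37.8 to 64.2. The first component (54.7%) had its lowest value, -136.1, in polysomal glh1 library 3. The tissue label reads whole embryo. Markers of the zygotic embryo (4 of 9 tested, none at 0 throughout) summed to 0.832 to 2.08 CPM in total RNA, against 15054 to 27162 CPM for 6 yolk protein genes of the adult intestine.

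The strongest expression came from a few constitutive genes. Per kilobase of exon, sip-1, a small heat shock protein of oocytes and embryos, had the highest level, with means of 3163 CPM per kb in total glh1 RNA and 3844 in total wt RNA. The cytosolic HSP90 gene hsp-90 followed in both genotypes (1231 and 787 CPM per kb), and then the constitutive HSP70 gene hsp-1 (953 and 762). At the other end, hsp-12.1 averaged 3.79 and 3.87 CPM per kb. Heat-inducible genes were measurable without heat: hsp-16.1 copy b averaged 173 CPM per kb in total glh1 RNA and 177 in total wt RNA, where culture 1 set the mean (177, 32.2 and 43.6 CPM in wt cultures 1 to 3).

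The inducible genes set the wt cultures apart from one another. Summed over the 7 rows, they reached 305, 216 and 293 CPM in total RNA of glh1 cultures 1 to 3, and 669, 88.9 and 157 CPM in total RNA of wt cultures 1 to 3. In polysomal RNA the sums were 364, 277 and 222 CPM in glh1 and 596, 89.5 and 71.2 CPM in wt. Wt culture 1 was the highest of all 6 libraries in both fractions, wt cultures 2 and 3 were the lowest, and the glh1 cultures lay between them. The constitutive class behaved differently: its sum was 5549.96, 5587 and 5483 CPM in total glh1 RNA against 4497, 4231 and 3435 CPM in total wt RNA, with no overlap. The plot of summed levels by class shows both patterns.

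**Figure D1:**
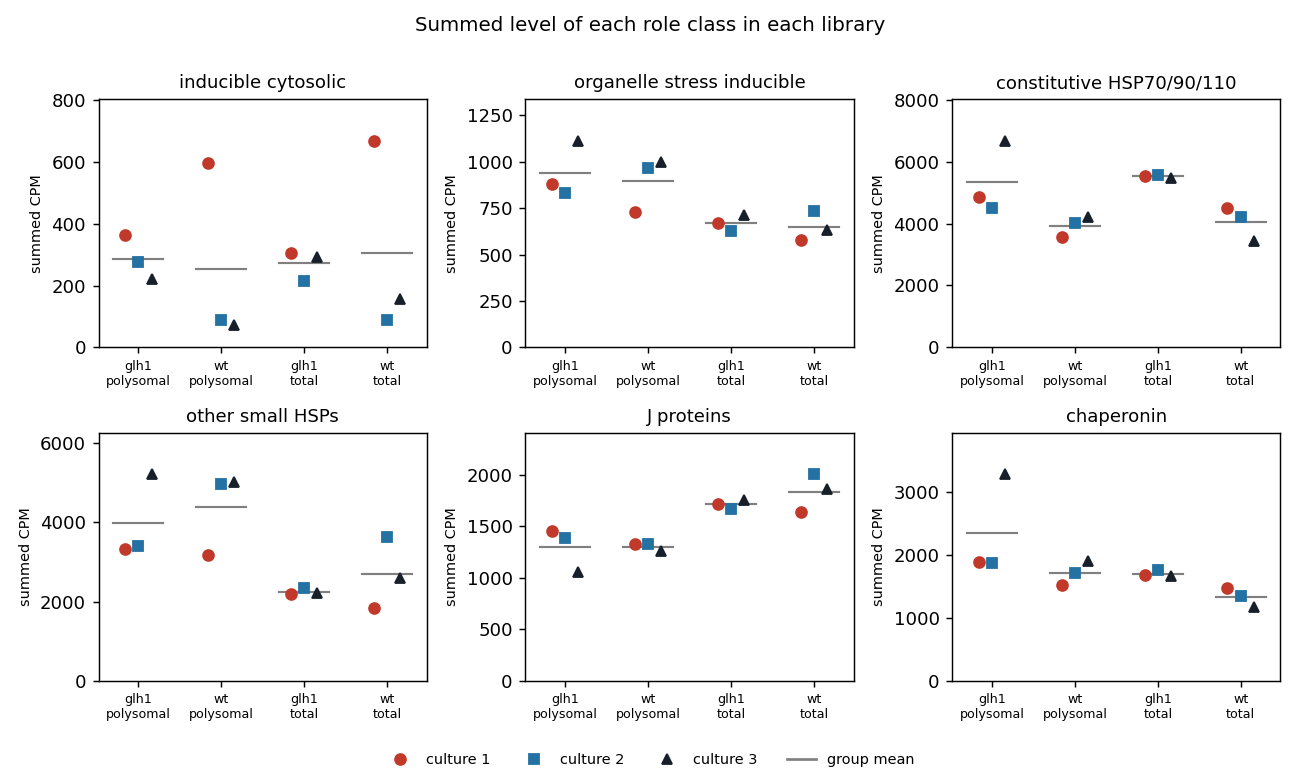
Summed TMM-scaled CPM of 6 role classes in each library, by group, with a symbol for each culture and a grey line at the group mean; each axis starts at 0. For the inducible cytosolic class the point of wt culture 1 is the highest in each fraction (596 CPM polysomal, 669 CPM total), and polysomal glh1 library 3 has the highest chaperonin sum, 3282 CPM.

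The hsp-16 genes stand in a pair and a cluster on chromosome V (WBcel235). hsp-16.2 and hsp-16.41 are divergent, 220 bases apart, in V:1804334-1805875. V:9087293-9090604 holds 4 genes in 3312 bases, 2 under the symbol hsp-16.1 (copies a and b here) and 2 under hsp-16.48. The 2 hsp-16.48 rows had equal estimated counts in 12 of 12 libraries, to within 0.01. hsp-16.1 copy a had under 1 count in 8 of 12 libraries. The split of reads between such near-identical copies is uncertain, which bears on copy b as well. Tests of copy a are therefore mentioned only where members are counted. Its levels were 0, 0 and 10.7 CPM in polysomal glh1 RNA, 0 in each polysomal wt library, 9.40, 0 and 0 CPM in total glh1 RNA and 69.3, 0 and 12.0 CPM in total wt RNA.

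hsp-16.2 had 23.1, 16.486 and 21.5 CPM in total RNA of glh1 cultures 1 to 3 and 44.0, 6.196 and 10.4 CPM in wt cultures 1 to 3. hsp-16.1 copy b had 89.1, 67.7 and 90.6 CPM in glh1 and 177, 32.2 and 43.6 CPM in wt, and hsp-70, the inducible HSP70 gene, had 161, 114 and 164 CPM in glh1 and 150.4, 41.7 and 42.6 CPM in wt. For hsp-16.2 and hsp-16.1 copy b the glh1 values fell inside the gap between wt culture 1 and the other 2 wt cultures. hsp-70 in wt culture 1 was inside the glh1 range, and in wt cultures 2 and 3 was below it. hsp-16.41 had 11.2, 8.60 and 8.75 CPM in glh1 and 44.7, 3.47 and 11.9 CPM in wt. Each hsp-16.48 row had 5.80, 4.37 and 4.29 CPM in glh1 and 92.1, 2.66 and 18.4 CPM in wt, where cultures 1 and 3 were above the glh1 range and culture 2 was below it. Between the 3 wt cultures the highest and lowest values of hsp-16.48 differed by 5.09 on the log2 scale, against a median of 0.604 over all genes tested. In glh1 total RNA the same range was 0.43 for hsp-16.48, against a median of 0.229 over all genes.

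In polysomal RNA, hsp-16.2 had 51.1, 31.4 and 40.97 CPM in glh1 and 69.2, 9.37 and 9.12 CPM in wt. hsp-16.1 copy b had 199, 133 and 101 CPM in glh1 and 349, 41.2 and 35.7 CPM in wt. hsp-70 had 72.0, 91.3 and 19.6 CPM in glh1 and 104, 23.9 and 16.105 CPM in wt. In polysomal RNA wt culture 1 was the highest library of the 6 for all of these. hsp-16.41 had 21.3, 9.87 and 12.6 CPM in glh1 and 30.7, 4.82 and 4.31 CPM in wt, and each hsp-16.48 row had 10.3, 5.45 and 18.5 CPM in glh1 and 21.4, 5.13 and 2.98 CPM in wt. Wt culture 1 was the highest for 6 of the 7 inducible rows in each fraction, against 18.2% of all genes in total RNA and 17.5% in polysomal RNA. Both of its fractions come from 1 lysate, so they are not independent.

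**Figure D2:**
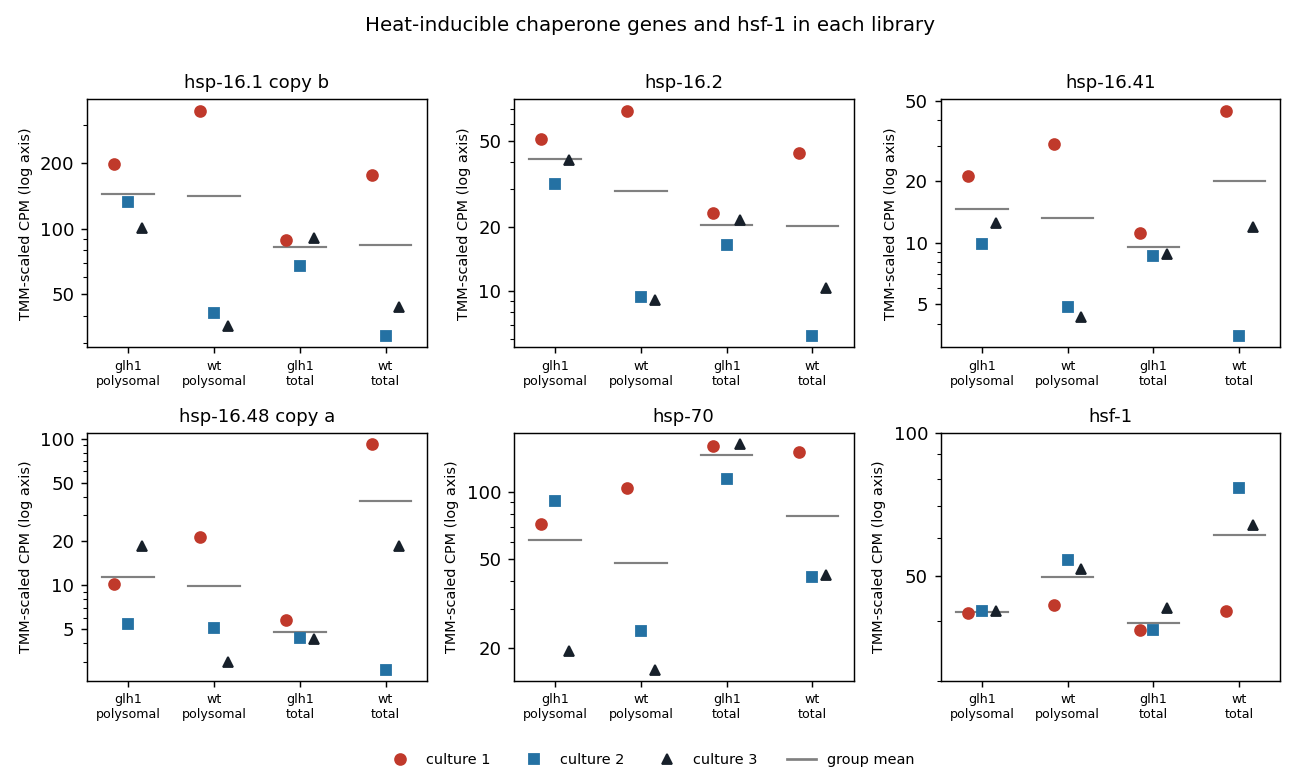
TMM-scaled CPM (log axes, a separate scale in each panel) of 5 heat-inducible genes and hsf-1 in each library, by group, with a symbol for each culture and a grey line at the group mean. In the hsp-16.2 and hsp-16.1 copy b panels all glh1 points lie below wt culture 1 and above wt cultures 2 and 3 in both fractions, while for hsf-1 in total RNA wt culture 1 lies with glh1.

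Beside this spread no inducible gene passed the test between genotypes. Counts were tested with edgeR's quasi-likelihood test, and a gene is called, or passes, where the p adjusted by Benjamini and Hochberg over all genes is under 0.05. The log2 fold change of glh1 over wt in total RNA was 0.01 for hsp-16.2 (SE 0.76, adjusted p = 0.998), 0.90 for hsp-70 (SE 0.71, adjusted p = 0.536) and -2.97 for each hsp-16.48 row (SE 1.00, adjusted p = 0.167). hsp-16.41 stood at -1.07 (SE 0.82, adjusted p = 0.525). In polysomal RNA hsp-16.2 stood at 0.49 (SE 0.76) and hsp-70 at 0.34 (SE 0.70).

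The call turned on wt culture 1. Without both of its libraries, hsp-16.2 was higher in glh1 than in wt in total RNA by 1.39 on the log2 scale (SE 0.29, adjusted p = 0.0209), hsp-16.1 copy b by 1.23 (SE 0.28, adjusted p = 0.0280, against -0.03 with all libraries) and hsp-70 by 1.91 (SE 0.52, adjusted p = 0.0482). In polysomal RNA hsp-16.2 was higher by 2.09 (SE 0.30, adjusted p = 0.00458) and hsp-16.1 copy b by 1.83 (SE 0.29, adjusted p = 0.00730). hsp-70 (1.52, adjusted p = 0.0917) and hsp-16.41 (1.60, adjusted p = 0.0753) did not pass there. In total RNA hsp-16.41 turned to 0.39 (SE 0.47, adjusted p = 0.631), against -1.07 with all libraries, and did not pass. Nor did hsp-16.48 pass, at -1.05 in total RNA (adjusted p = 0.361) and 1.43 in polysomal RNA (adjusted p = 0.251). In those fits 9.41% of all genes in total RNA and 8.77% in polysomal RNA were called, and each rests on 2 wt cultures. Wt culture 1 was the highest wt culture for each of these genes in both fractions. Leaving it out therefore raises the difference and narrows the wt spread, so these calls are not separate evidence of a difference. Those fits also kept both hsp-16.1 rows apart, so the uncertain split of reads bears on copy b.

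Marker levels moved with the same library. In total RNA the 6 yolk genes summed to 16914 to 19210 CPM in glh1, and to 15054 CPM in wt culture 1, 27162 in wt culture 2 and 23603 in wt culture 3. Wt culture 1 lay below the glh1 range and wt cultures 2 and 3 above it, and the oocyte and germline lists had the same order. The 9 oocyte genes summed to 4069 to 4242 CPM in glh1 and to 3747, 6969 and 5609 CPM in wt cultures 1 to 3. The 6 germline genes summed to 981 to 998 CPM in glh1 and to 950.5, 1381 and 1183 CPM in wt. For epidermis and muscle genes wt culture 1 was instead the highest library in total RNA. The 4 epidermis genes summed to 469 to 526 CPM in glh1 and to 1116, 855 and 670.2 CPM in wt, and the 4 muscle genes to 1280.0 to 1371 CPM in glh1 and to 2109, 1603 and 1422 CPM in wt. In polysomal RNA the epidermis sum was 412, 460.1 and 1101 CPM in glh1 and 1208, 1381 and 1363 CPM in wt, where culture 1 was the lowest of the 3, and the muscle sum was 2064, 1997 and 1985 CPM in glh1 and 2779.7, 2229 and 2303 CPM in wt, where culture 1 was the highest. In total RNA sperm genes (8) ran from 169 to 182 CPM in glh1 and from 117 to 144 CPM in wt, and neuron genes (5) from 175 to 181 CPM in glh1 and from 144 to 164 CPM in wt. A sum gives most weight to its most abundant genes. The median log2 fold change of glh1 over wt in total RNA was 0.0034 for the epidermis genes and -0.29 for the muscle genes. It was -1.23 for yolk, -0.39 for oocyte, -0.09 for germline, 0.20 for sperm and 0.33 for neuron genes. None of these genes was called between genotypes in total RNA. No gene of these lists was at 0 in every library. Their part in the chaperone differences was not tested, and in bulk RNA fewer cells of a type and less RNA per cell cannot be told apart.

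The regulator hsf-1 was lowest in culture 1 among the wt cultures. It had 38.3, 38.4 and 42.7 CPM in total RNA of glh1 and 42.2, 76.5 and 63.8 CPM in wt, so that wt culture 1 lay within the glh1 range. The log2 fold change was -0.61 (SE 0.20, adjusted p = 0.155), which did not pass. It passed without total wt library 1 (-0.82, adjusted p = 0.0279) and without both libraries of wt culture 1 (-0.70, SE 0.13, adjusted p = 0.0144). Both fits left out the wt library of total RNA nearest to glh1 for this gene. In polysomal RNA hsf-1 had 41.6, 42.0 and 42.1 CPM in glh1 and 43.3, 54.04 and 51.6 CPM in wt, without overlap, and stood at -0.24 (SE 0.20, adjusted p = 0.591).

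Across all 61 members, none was called between glh1 and wt in total RNA, where 0.944% of all genes were called, and none in polysomal RNA, where 1.06% were, by edgeR's quasi-likelihood test with Benjamini-Hochberg adjustment over 16526 genes. At an unadjusted p under 0.05 there were 7 members in each fraction, against 17.8% of all genes in total RNA and 15.7% in polysomal RNA. DESeq2 called 1 member in each: dnj-26, lower in total RNA (-1.20, adjusted p = 0.00972), and hsp-16.1 copy a in polysomal RNA, where all wt libraries were at 0. Of all genes DESeq2 called 4.85% in total RNA and 4.09% in polysomal RNA. The median log2 fold change of the members was -0.07 in total RNA and 0.03 in polysomal RNA, and that of all genes -0.07 and -0.01. These p-values rest on a spread estimated over all 12 libraries, polysomal and total together, with 3 cultures per genotype. With only the groups compared in the fit, 3 members and 8.40% of all genes were called in total RNA. In polysomal RNA that fit called 0 members and 0.0189% of all genes.

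Within the constitutive class, hsp-90 had 2882, 3011 and 2818 CPM in total glh1 RNA and 2278, 1799 and 1494 CPM in total wt RNA. hsp-1 had 1994, 1959.5 and 1973 CPM in glh1 and 1568, 1794 and 1378 CPM in wt. For both, each glh1 library was above each wt library, yet the differences of 0.65 (SE 0.31, adjusted p = 0.298) and 0.32 (SE 0.22, adjusted p = 0.482) on the log2 scale did not pass. Of all 61 members, 18 had groups that did not overlap in total RNA (12 higher and 6 lower in glh1), beside 33.7% of all genes (16.6% higher and 17.1% lower). hsp-110, the HSP110 gene (0.12, SE 0.23), hsp-3, an ER HSP70 gene (0.10, SE 0.22), and hsp-75, the mitochondrial HSP90 gene (-0.0019, SE 0.14), overlapped between genotypes.

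The chaperonin made up 7 of those 12 higher members. Its sum was 1685, 1751 and 1665 CPM in total glh1 RNA and 1469.85, 1341 and 1166 CPM in total wt RNA. cct-3 had 197, 178 and 202 CPM in glh1 and 159, 109.996 and 102 CPM in wt, and the class ran from -0.01 for cct-8 to 0.64 for cct-3 (SE 0.39) with a median of 0.37 on the log2 scale. The smallest adjusted p of the class was 0.281, for cct-4. With only total RNA libraries in the fit, cct-1 (0.53, adjusted p = 0.0431) and cct-2 (0.48, adjusted p = 0.0491) passed. cct-4 passed without wt culture 1 (0.60, adjusted p = 0.0470), and cct-3 without polysomal glh1 library 3 (0.64, adjusted p = 0.0331). Those fits called 8.40%, 9.41% and 8.60% of all genes, in that order. In polysomal RNA 10 members did not overlap (3 higher, 7 lower), beside 17.6% of all genes (9.48% higher and 8.08% lower), and cct-1 was the only chaperonin subunit among them.

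Of the organelle genes, hsp-6, the mitochondrial HSP70 gene, had 366, 335 and 404 CPM in total glh1 RNA and 324, 319.9 and 292 CPM in wt, without overlap (0.24, SE 0.18, adjusted p = 0.521). hsp-4, an ER HSP70 gene, had 155, 155 and 168 CPM in glh1 and 117, 210.1 and 167 CPM in wt, with overlap (-0.05, SE 0.21). The mitochondrial chaperonin gene hsp-60 stood at -0.26 (SE 0.30). In total RNA hsp-4 was lowest in wt culture 1, where the hsp-16 genes were highest, and 24.7% of all genes were lowest in that library. In polysomal RNA its lowest value was 122.9 CPM, in glh1 library 3, against 125.4 CPM in wt culture 1.

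Among J proteins, 6 of 29 were below wt in every glh1 library of total RNA and 2 were above, beside 17.1% and 16.6% of all genes. dnj-26 had 8.03, 7.13 and 7.07 CPM in glh1 and 17.4, 11.8 and 22.6 CPM in wt, the lowest adjusted p of any member in this contrast (-1.22, SE 0.31, adjusted p = 0.0812). It passed with only total RNA in the fit (adjusted p = 0.0283) and without polysomal glh1 library 3 (adjusted p = 0.0164), as did dnj-8 (-0.50, adjusted p = 0.0471) and dnj-9 (-0.44, adjusted p = 0.0445) without that library. Those fits called 8.40% and 8.60% of all genes. dnj-12, a DNAJA family gene with the highest level per kilobase among J proteins in total wt RNA (159 CPM per kb in glh1 and 129.9 in wt), had 271, 265 and 264 CPM in glh1 and 229, 239 and 184 CPM in wt, without overlap (0.29, SE 0.18, adjusted p = 0.418). In polysomal RNA dnj-2 had the lowest fold change of the class (-0.83, SE 0.31, adjusted p = 0.223). There dnj-17 passed without wt culture 1 (-0.70, adjusted p = 0.0421), in a fit that called 8.77% of all genes.

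**Figure D3:**
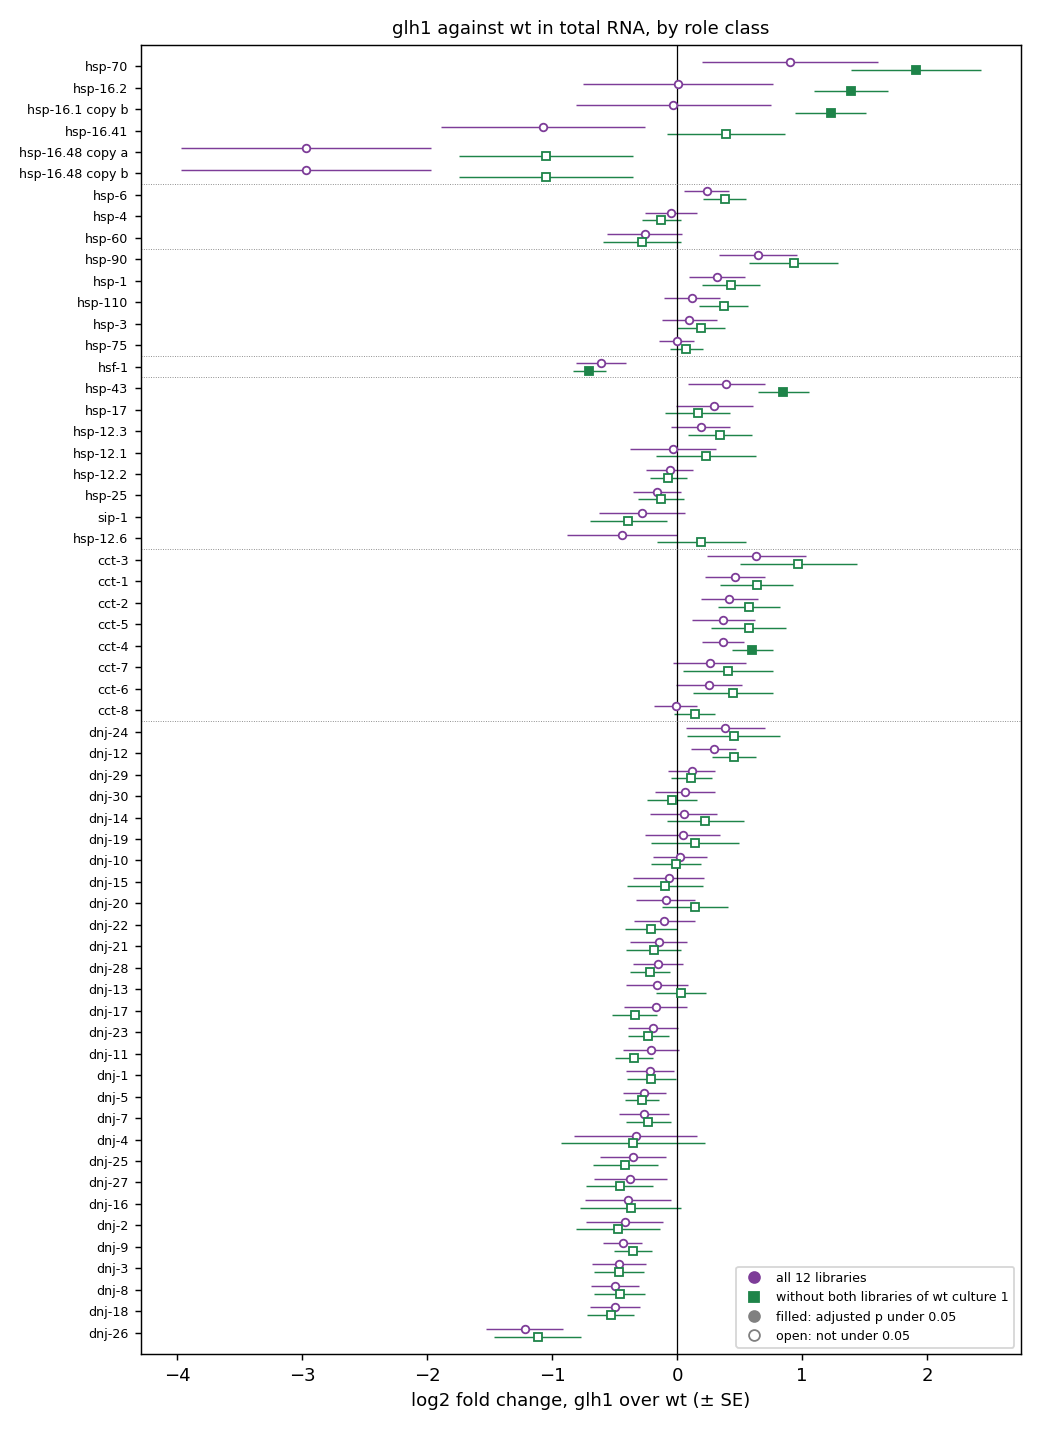
Log2 fold change of glh1 over wt in total RNA with its SE for 60 members (hsp-16.1 copy a, at 0 in most libraries, is left out), grouped by role between dotted lines, from all 12 libraries (circles) and without both libraries of wt culture 1 (squares); filled symbols have an adjusted p under 0.05. No circle is filled, and 6 squares are: hsp-70, hsp-16.2, hsp-16.1 copy b, hsf-1, hsp-43 and cct-4.

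Polysomal RNA differed from total RNA by role. In glh1, 32 of 61 members were called (12 higher and 20 lower in polysomal RNA), beside 42.7% of all genes, and in wt 23 were called (9 higher and 14 lower), beside 39.9%. All 23 wt calls were also calls in glh1 with the same sign, and 9 passed in glh1 alone. The share of all genes called in both genotypes is not given. For none of the 9 did the test of the difference between genotypes pass. Calls among the other small heat shock protein genes were all higher in polysomal RNA, and most calls among J protein genes were lower. The median log2 fold change of polysomal over total RNA was 0.93 in glh1 and 1.16 in wt for the 8 other small heat shock protein genes, -0.74 and -0.66 for J proteins, and 0.13 and 0.06 for all genes.

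Of the 8 other small heat shock protein genes, 6 rose in polysomal RNA in each genotype and none fell, where 23.6% of all genes rose in glh1 and 20.1% in wt. hsp-12.2, a short family member, had 131, 132 and 153 CPM in polysomal and 51.1, 52.0 and 53.7 CPM in total glh1 RNA, and 125, 172 and 189 CPM in polysomal and 44.5, 62.8 and 56.1 CPM in total wt RNA. Each polysomal library was above each total library. The log2 fold change was 1.41 in glh1 (SE 0.19, adjusted p = 0.000252) and 1.57 in wt (SE 0.20, adjusted p = 0.000108). hsp-12.3 had 68.0, 70.5 and 117 CPM in polysomal and 30.5, 34.4 and 28.9 CPM in total glh1 RNA, with fold changes of 1.44 in glh1 and 1.57 in wt. hsp-25 rose by 0.90 in glh1 and 1.22 in wt, hsp-12.1 by 1.63 and 1.22, hsp-43 by 0.96 and 0.94, and hsp-17 by 0.89 and 1.07. sip-1 did not pass, at 0.79 in glh1 (adjusted p = 0.0825) and 0.64 in wt (adjusted p = 0.159). hsp-12.6 passed with a block for culture, at 0.73 in glh1 (adjusted p = 0.0244) and 1.11 in wt (adjusted p = 0.00471). Without a block it did not pass over all 12 libraries, and in wt it passed with DESeq2 (1.06, adjusted p = 0.0425), with upper-quartile scaling (1.31, adjusted p = 0.0473) and with wt culture 1 left out (1.23, adjusted p = 0.0346). It also passed in wt without total wt library 1 (1.63, adjusted p = 0.0183), without polysomal wt library 3 (1.37, adjusted p = 0.0437) and without polysomal glh1 library 3 (1.11, adjusted p = 0.0434).

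J proteins were lower in polysomal RNA in 17 of 29 cases in glh1 and 12 of 29 in wt, where 19.1% and 19.8% of all genes were lower. dnj-8 had 17.8, 13.05 and 10.1 CPM in polysomal and 44.1, 44.0 and 47.3 CPM in total glh1 RNA, and 14.0, 14.1 and 14.0 CPM in polysomal and 56.9, 62.1 and 71.8 CPM in total wt RNA. The fractions did not overlap, and the log2 fold change was -1.72 in glh1 (SE 0.20, adjusted p = 0.000114) and -2.18 in wt (SE 0.20, adjusted p = 3.38e-05). dnj-26 had 1.53, 1.83 and 2.81 CPM in polysomal and 8.03, 7.13 and 7.07 CPM in total glh1 RNA, and 2.74, 2.39 and 1.44 CPM in polysomal and 17.4, 11.8 and 22.6 CPM in total wt RNA. Its fold change was -1.86 in glh1 (SE 0.32) and -2.97 in wt (SE 0.33).

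The other J protein genes that fell in both genotypes were dnj-1, dnj-5, dnj-9, dnj-18, dnj-22 and dnj-28, dnj-11 (a zuotin homolog of the ribosome), dnj-17, dnj-20 (an ER lumen J protein) and dnj-25 (auxilin, of clathrin uncoating), from -0.66 for dnj-20 to -1.28 for dnj-5 in glh1, and from -0.74 for dnj-17 to -1.57 for dnj-5 in wt. With a block for culture dnj-17 in wt no longer passed (adjusted p = 0.0575). In glh1 there were also dnj-2, dnj-4, dnj-10 (mitochondrial), dnj-15 and dnj-29 (of ER translocation), at -0.54 for dnj-29 to -1.51 for dnj-4. Against the class, dnj-21, a mitochondrial import motor J protein, rose by 0.99 in glh1 (adjusted p = 0.00451) and 1.07 in wt (adjusted p = 0.00303). dnj-27, an ER J protein with a disulfide reductase domain, rose by 1.05 in glh1 (adjusted p = 0.0120), and dnj-13, a DNAJB family gene, by 0.83 (adjusted p = 0.0175). In wt they stood at 0.69 and 0.43 and did not pass.

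The chaperonin subunits, made for 1 ring, did not share a direction. cct-7 had 333, 346 and 784 CPM in polysomal and 179, 190.0 and 178 CPM in total glh1 RNA, and 277, 336 and 348 CPM in polysomal and 158, 165 and 132 CPM in total wt RNA. It rose by 1.42 in glh1 (SE 0.30, adjusted p = 0.00265) and 1.08 in wt (SE 0.30, adjusted p = 0.0120). cct-3 had 78.1, 74.8 and 17.9 CPM in polysomal and 197, 178 and 202 CPM in total glh1 RNA, and 55.6, 56.2 and 51.3 CPM in polysomal and 159, 109.996 and 102 CPM in total wt RNA. For both genes the fractions did not overlap in either genotype, and cct-3 went the other way, at -1.75 in glh1 (SE 0.40, adjusted p = 0.00443) and -1.19 in wt (SE 0.40, adjusted p = 0.0312). In glh1 alone cct-6 rose by 0.95 (adjusted p = 0.0132) and cct-4 stood lower at -0.54 (adjusted p = 0.0217). cct-5 was at 0.58 in glh1 and 0.47 in wt, and did not pass.

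Polysomal glh1 library 3 held the highest polysomal level of 6 of the 8 chaperonin subunits and the lowest of 19 of the 29 J proteins, where 31.1% and 35.2% of all genes had their highest and lowest level in that library. Its sperm gene sum was 492 CPM, against 188 to 189 CPM in the other polysomal glh1 libraries and 219 to 266 CPM in polysomal wt RNA, and its epidermis sum, given above, was also the highest of the 3 polysomal glh1 libraries. Their part in the result was not tested. Without that library 33 members were called between fractions in glh1 and 38 in wt, with a fit over the other 11 libraries in which 37.8% of all genes were called in glh1 and 49.5% in wt.

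Of the organelle and constitutive genes, 1 rose and 1 fell in both genotypes. hsp-60 had 292, 286 and 589.7 CPM in polysomal and 148, 139.8 and 144 CPM in total glh1 RNA, and 248, 398 and 425 CPM in polysomal and 138, 205 and 173 CPM in total wt RNA, and rose by 1.44 in glh1 (adjusted p = 0.00278) and 1.05 in wt (adjusted p = 0.0149). hsp-75, also of the mitochondrion, had 41.4, 39.6 and 40.9 CPM in polysomal and 69.0, 69.4 and 70.8 CPM in total glh1 RNA, a fold change of -0.78 in glh1 (adjusted p = 0.00110) and -0.82 in wt (adjusted p = 0.000803). hsp-6 (0.16 in glh1, 0.35 in wt), hsp-4 (-0.17 and -0.20), hsp-1 (0.33 and 0.35), hsp-3 (0.54 and 0.43), hsp-90 (-0.44 and -0.54) and hsp-110 (-0.19 and -0.25) did not pass.

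The inducible genes did not pass between fractions in the fit over all 12 libraries without a block. hsp-16.2 was higher in the polysomal than in the total library of each glh1 culture, with differences of 1.15, 0.93 and 0.93 in log2 CPM, and hsp-70 was lower in each, with differences of -1.16, -0.33 and -3.06. With a block for culture, hsp-16.2 (1.00, adjusted p = 0.00494) and hsp-16.1 copy b (0.77, adjusted p = 0.0445) were higher and hsp-70 (-1.48, adjusted p = 0.0270) was lower in polysomal than in total glh1 RNA. With that block 47.8% of all genes were called in glh1. The same 3 passed in glh1 without a block when wt culture 1, not part of that contrast, was left out. They stood at 0.93 (adjusted p = 0.0135), 0.71 (adjusted p = 0.0352) and -1.37 (adjusted p = 0.0274), and 48.8% of all genes were called in glh1 in that fit. Total RNA of wt cultures 1 and 3 had another balance of hsp-16 transcripts. The ratio of hsp-16.48 to hsp-16.1 CPM, each summed over its 2 rows, was 0.118, 0.129 and 0.0948 in total glh1 RNA and 0.748, 0.165 and 0.661 in total wt RNA, and in polysomal RNA 0.103, 0.0819 and 0.332 in glh1 and 0.123, 0.249 and 0.167 in wt. The ratio of hsp-16.41 to hsp-16.2 was 1.02 and 1.14 in total RNA of wt cultures 1 and 3, and 0.306 to 0.560 in the other 10 libraries.

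**Figure D4:**
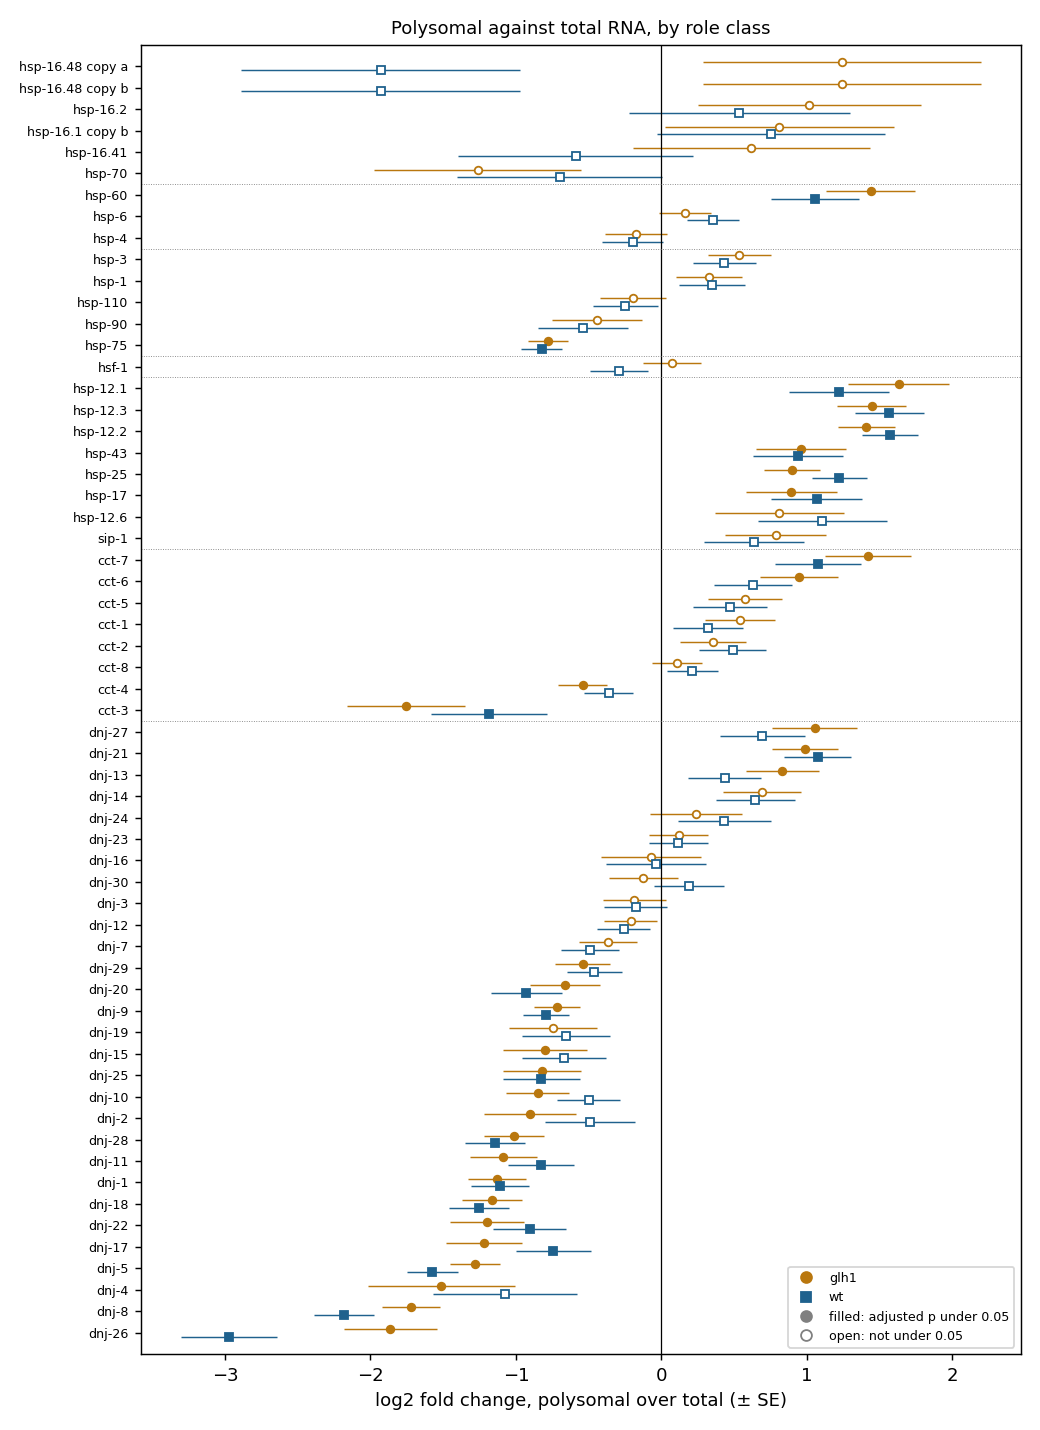
Log2 fold change of polysomal over total RNA with its SE for 60 members (hsp-16.1 copy a, at 0 in most libraries, is left out) in glh1 (circles) and wt (squares), grouped by role between dotted lines; filled symbols have an adjusted p under 0.05. All 8 other small heat shock protein genes lie right of 0 in both genotypes, more J protein genes have a filled symbol left of it than right, and cct-7 and cct-3 lie on opposite sides.

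The calls differ in how firmly they stand. In all 12 fits that each left out 1 library, 12 members kept their call in both genotypes: hsp-12.2, hsp-12.3, hsp-25 and dnj-21 higher, and dnj-1, dnj-5, dnj-8, dnj-9, dnj-18, dnj-26, dnj-28 and hsp-75 lower. The share of all genes that kept a call is not given, so that count is not set against all genes. In glh1, cct-3, cct-7, hsp-60, hsp-12.1, dnj-10, dnj-11, dnj-17 and dnj-22 also kept theirs, as did dnj-20 in wt. Total wt library 3 decided the wt calls of cct-7 (adjusted p = 0.0668 without it) and hsp-12.1 (0.0676), and total wt library 2 those of dnj-11 (0.0561) and dnj-22 (0.0564). Total glh1 library 2 decided the glh1 calls of dnj-2 (adjusted p = 0.0834 without it), dnj-4 (0.0671) and dnj-25 (0.0531). In wt, hsp-60 was lost without polysomal library 2 or 3 or total library 1 or 3 (adjusted p = 0.0516 to 0.0606), and cct-3 without any of the 3 polysomal libraries or total library 1 or 3 (0.0501 to 0.102493). In wt, hsp-17 was lost without polysomal library 3 or total library 1 (adjusted p = 0.0569 to 0.0619), hsp-43 without polysomal library 1 or total library 2 or 3 (0.0990 to 0.145), dnj-25 without polysomal library 1 or 3 or total library 2 or 3 (0.0711 to 0.0964), and dnj-17 without any of 5 wt libraries, total library 1 being the exception, or total glh1 library 2 (0.0515 to 0.152).

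In glh1, hsp-43 was lost without polysomal library 1 or 2 or any total library (adjusted p = 0.0550 to 0.108), and hsp-17 without the same libraries, polysomal wt library 2 or total wt library 3 (0.0556 to 0.144). cct-4 was lost without polysomal glh1 library 1 or 2 or total glh1 library 2 (adjusted p = 0.0503 to 0.0894), cct-6 without total glh1 library 1 or 3 (0.0798 to 0.0876), dnj-27 without the same pair of libraries (0.0506 to 0.0622), and dnj-13 without polysomal glh1 library 1 or any total glh1 library (0.0568 to 0.0932). dnj-20 was lost without polysomal glh1 library 2 or 3, any total glh1 library or polysomal wt library 3 (adjusted p = 0.0546 to 0.0892), dnj-29 without polysomal glh1 library 2 or 3, total glh1 library 2 or 3 or polysomal wt library 3 (0.0510 to 0.0811), and dnj-15 without polysomal glh1 library 3, total glh1 library 2 or polysomal wt library 3 (0.0531 to 0.0940).

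Fold changes between fractions went with exon length: over 16510 genes Spearman's rho was -0.402 in glh1 and -0.449 in wt, and over the 61 members -0.379 and -0.190, all from the same libraries. Other small heat shock protein genes had a median exon length of 652.5 bases and J protein genes one of 1541. With a trend on exon length removed from each library, 5 of the 8 small heat shock protein genes were called higher in glh1 and 4 in wt. J proteins were then called lower in 14 cases in glh1 and 10 in wt. In either direction, 31 of 61 members were called in glh1 and 23 in wt, beside 38.8% and 34.1% of all genes. Shares of all genes by direction are not given for that fit. In glh1, 6 of the 32 calls were lost: hsp-17 (0.40, adjusted p = 0.411), dnj-21 (0.27, adjusted p = 0.305), dnj-20, dnj-25, dnj-29 and cct-4. In wt, 8 of the 23 calls were lost: hsp-17, hsp-12.1, dnj-21, dnj-11, dnj-17, dnj-20, dnj-25 and cct-3. In wt dnj-3 (-0.72, adjusted p = 0.0394) and dnj-15 (-1.14, adjusted p = 0.0167) were then called lower in addition. In that fit hsp-6 was called higher in both genotypes (0.56 in glh1 and 0.80 in wt), as was hsp-3 (0.99 and 0.94), and both hsp-16.48 rows were called lower in wt (-2.67, adjusted p = 0.0435). Some further calls gained in that fit are not named here.

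The scaling also moved the balance of directions. With upper-quartile scaling the median of all genes between fractions was 0.28 in place of 0.13 in glh1 and 0.32 in place of 0.06 in wt. The members called in glh1 were then 17 higher and 15 lower, against 12 and 20 with TMM. In wt they were 18 higher and 12 lower, against 9 and 14. In either direction, 44.97% of all genes were called in glh1 and 43.67% in wt with upper-quartile scaling. Shares of all genes by direction are not given for that scaling. sip-1 passed under that scaling (0.94 in glh1 and 0.92 in wt), and cct-3 in wt (-0.96) did not. Over the alternatives run, no member called between fractions changed sign.

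No member was called for a difference in polysome ratio between glh1 and wt, where 0% of all genes were called by edgeR's quasi-likelihood test. That does not show that the ratios were equal. At an unadjusted p under 0.05 there were 4 members, beside 2.97% of all genes: dnj-26 (1.11, SE 0.44), both hsp-16.48 rows (3.17, SE 1.35) and hsp-16.1 copy a. DESeq2 called 0.0139% of all genes and 1 member, hsp-16.1 copy a, which had under 1 count in 8 of 12 libraries. The polysomal minus total difference in log2 CPM for hsp-16.48 was 0.82, 0.31 and 2.10 in glh1 cultures 1 to 3 and -2.10, 0.94 and -2.61 in wt cultures 1 to 3, and wt culture 2 alone lay within the glh1 range.

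Of 38 other genes of the folding pathways, all tested, none was called between genotypes by edgeR's quasi-likelihood test or by DESeq2 in either fraction (6 in total RNA and 2 in polysomal RNA at an unadjusted p under 0.05, beside 17.8% and 15.7% of all genes). Between fractions 9 were higher and 10 lower in polysomal RNA in each genotype, beside 42.7% of all genes called in glh1 and 39.9% in wt. Of 11 co-chaperones of HSP90 and HSP70, 4 rose in both genotypes. They were hip-1, which holds HSP70 in its ADP state (1.90 in glh1, 1.62 in wt), sti-1, which joins HSP70 to HSP90 (1.54 and 1.29), daf-41, the p23 homolog (0.96 and 1.04), and cdc-37, which brings kinases to HSP90 (0.93 and 0.83). Lower were ahsa-1, an activator of the HSP90 ATPase (-0.87 and -0.53), and unc-23, a BAG family gene (-1.05 and -1.01).

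Of 12 ER folding and unfolded protein response genes, pdi-2 (1.48 in glh1, 1.16 in wt) and pdi-6 (1.23 and 1.10), protein disulfide isomerase genes, rose. The stress sensors ire-1 (-1.06 and -1.48) and pek-1 (-1.45 and -1.11), the ER HSP90 gene enpl-1 (-1.14 and -0.78) and the oxidase gene ero-1 (-0.42 and -0.63) fell in both, and the calnexin gene cnx-1 in glh1 (-0.90). Of 6 genes of the mitochondrial response, ubl-5 rose in both (1.23 and 1.01) and the transcription factor gene dve-1 fell in both (-0.80 and -1.20). The protease gene clpp-1 rose (0.54) and lonp-1 (-0.77) and atfs-1 (-0.80) fell in wt, and the transporter gene haf-1 fell in glh1 (-0.85). Of 3 inhibitors of HSF-1, ddl-1 fell in both (-0.89 and -1.04). Of 6 prefoldin subunits, pfd-6 rose in both (0.64 and 0.86) and pfd-2 in glh1 (0.82).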

How the data were processed

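RNA was measured by sequencing in 12 libraries, and the deposited tables hold estimated counts per gene and rlog values on a log2 scale made by the authors. Per the submitters' processing notes, the tools were DESeq2 1.24.0 and R 3.6.1, RSEM 1.3.0, STAR 2.6.1b and Trimmomatic 0.36, and the build was WBcel235. The kit was stranded, per the labels' protocols, but the strand setting and which tool made the deposited count table are not stated there. Symbols, positions and union exon lengths came from Ensembl release 115. Members, roles and lists were chosen with earlier results of these data known.

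Estimated counts were rounded and fitted with edgeR 4.0.16 in R 4.3.3 (TMM, filterByExpr, 16526 genes, 1 quasi-likelihood model with robust dispersions over 4 groups). P-values were adjusted by Benjamini and Hochberg over all genes in each of 5 contrasts, and genes under 0.05 are called. Levels are TMM-scaled CPM, log2 CPM used a prior count of 2, and SE is that of the fitted log2 fold change. The fit was checked on simulated counts. Genes named with values are the inducible, constitutive and regulator genes, all called members, the highest and lowest level per kilobase (CPM) in each role and the largest change in each contrast. The rule planned TPM for levels, and CPM per kilobase was used. Others were named after their values were seen.

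Total and polysomal libraries of a culture share a lysate, which pairs them by design. Within a culture, the deviations of both fractions from their group means had correlations of 0.0989, -0.163 and -0.206 in glh1 and 0.756, 0.440 and 0.303 in wt. The 23 alternatives include DESeq2 1.42.0, limma 3.58.1 on the rlog values, other scaling and filters, a replicate block, a trend on exon length and each library left out. The block was culture for contrasts between fractions and of polysome ratios, and replicate number for contrasts between genotypes. Summing the hsp-16 copies was chosen after the data were seen. Figures were drawn in Python 3.11.15 with pandas 2.3.3 and matplotlib 3.10.9.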

Additional observations from a re-analysis of the deposited data

How the results depend on the processing

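Between genotypes, the 0 members called in total RNA became 3 with only the compared groups in the fit (cct-1 and cct-2 higher, dnj-26 lower), 6 without both libraries of wt culture 1 (hsp-16.2, hsp-16.1 copy b, hsp-70, hsp-43 and cct-4 higher, hsf-1 lower) and 1 with DESeq2. Leaving out 1 library gave 0 to 4, with 4 without polysomal glh1 library 3 and 1 without total wt library 1. Without wt culture 1, hsp-16.1 copy b changed sign and was called (1.23, against -0.03), and hsp-16.41 changed sign without a call (0.39, against -1.07). That culture was the highest wt culture for both genes in total RNA. In polysomal RNA, 0 became 3 without wt culture 1 (hsp-16.2, hsp-16.1 copy b, dnj-17) and 1 with DESeq2, and stayed at 0 to 0 with 1 library left out. There, 8.77% of all genes were called without wt culture 1 and 4.09% with DESeq2. Between fractions, leaving out 1 library gave 22 to 33 calls in glh1 and 16 to 38 in wt. In glh1 there were 22 without total glh1 library 2, beside 31.5% of all genes. In wt there were 16 without total wt library 3 and 38 without polysomal glh1 library 3, beside 26.3% and 49.5%. With a block on replicate number, which matches separate cultures of glh1 and wt, 0 were called in each genotype contrast. Of all genes 0.823% were called there in total RNA and 1.11% in polysomal RNA. With a block for culture 37 were called between fractions in glh1 and 26 in wt, beside 47.8% and 44.9% of all genes. The same block called 0 in the difference of polysome ratios. That difference gave 0 to 0 with 1 library left out and 1 with DESeq2. Only the compared groups cannot give that difference. The causes were not tested. Summing the hsp-16 copies gave -0.38 for hsp-16.1 and -2.97 for hsp-16.48 in total RNA between genotypes, neither called. SEs of 1.00 for hsp-16.48 and 0.82 for hsp-16.41 in total RNA limit what 3 cultures per genotype can show.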
